A study of Mus musculus with 18 samples.

Results

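The receptors described here are 6 surface proteins that T cells use to enter lymph nodes, to stay in them or to leave them. Their genes, Ccr7, Ccr9, Cxcr4, S1pr1, Selplg and Cd44, were taken by symbol. All 6 were found among the 15402 genes of the table, and all 6 were among the 13190 genes that were expressed highly enough to be tested (a mean log2 value of at least 3). RNA was sequenced from 18 libraries of lymph node T cells, 3 for each of 6 sorted populations. The mice were females of the strain C57/BL6 Foxp3Timer Foxp3-IRES-GFP, and all of them had received 3% oxazolone on the abdominal skin 5 days before the nodes were taken. Timer is a fluorescent protein under Foxp3 control whose blue form, seen soon after synthesis, matures to a lasting red form. Tnaive cells were CD44lo, GFP- and Timer-, and Teff cells were CD44hi, GFP- and Timer-. The other 4 populations were GFP+ and Timer+. Pers1 (intermediate blue, low red) and Pers2 (high blue, high red) are the persistent Foxp3 expressors, PAt cells had low blue and high red fluorescence, and Arrested cells had no blue and intermediate red fluorescence. The sample labels name these 4 populations otherwise, as de novo, maturing, mature and decaying expressers in that order. Pers1 and Pers2 together are called the persistent pair below, and the other Timer+ populations the PAt/Arrested pair. Each replicate was a pool of mice, every population had received oxazolone, and no library came from mice without it.

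Naive T cells pass from blood into lymph nodes by rolling on selectins and then stopping in response to chemokines, and they return to blood through the lymph. CCR7 binds CCL19 and CCL21 and draws cells into the T-cell zone. S1PR1 senses sphingosine-1-phosphate, which is plentiful in lymph, and carries cells out of the node. CXCR4 binds CXCL12 and holds cells in bone marrow and lymphoid stroma, and CCR9 binds CCL25 and directs cells to the thymus and the small intestine. PSGL-1, the product of Selplg, is a ligand of selectins once it carries the right sugars, and CD44 binds hyaluronan. Activated cells as a rule lose the receptors for lymph node entry and gain those for inflamed tissue.

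Values are log2 of normalised counts as deposited, and they are compared between populations within a gene only. A step of 1 is a doubling on the deposited scale, which looks like a regularised log transform. Such a transform draws differences of genes with few reads towards 0, and folds and back-transformed sums are given on that scale. Populations were compared with limma, and a gene was called at a Benjamini-Hochberg adjusted p under 0.05 (over all 13190 genes) together with an absolute log2 difference over 1. Whether replicates came from separate experiments is not stated in the sources used here, so the p-values measure the spread between these pools. The gates were checked by their markers. Cd4 lay between 14.47 and 15.70 and Cd3e between 13.60 and 13.90 in every library. Foxp3 had a mean log2 value from 14.42 to 14.82 in the 4 Timer+ populations, 11.34 in Tnaive and 10.54 in Teff cells. Teff libraries stood apart in markers of other cell types, with 6 of 7 markers of plasmacytoid dendritic cells, 7 of 7 of B cells, 4 of 5 tested of conventional dendritic cells, 3 of 6 tested of macrophages or monocytes, 4 of 5 tested of NK cells (the other was called lower) and 1 of 2 of CD8 T cells called higher than in Tnaive cells. Of 5 neutrophil markers 1 was in the table, and it was not called. The summed back-transformed level of the conventional dendritic cell markers was 1240 to 1500 in Teff and 103 to 147 in all other libraries, and that of the macrophage or monocyte markers 1910 to 2340 and 534 to 1020, with Cd14 near 0 (0.45 to 0.60 on the log2 scale) in every library. In bulk RNA, fewer cells of a type and less RNA per cell cannot be told apart.

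Between the persistent and PAt/Arrested pairs, 4 members were lower and 2 higher. Ccr9 and Ccr7 fell in Pers1 and Pers2, by 4.31-fold and 2.58-fold. S1pr1 and Cxcr4 were also lower, with log2 differences of -0.62 and -0.52, and Cd44 and Selplg were higher, with 1.00 (0.9958 before rounding) and 0.33, all 4 short of the fold threshold. Thus 2 of 6 members were called, where 7.51% of all genes were. An adjusted p under 0.05 alone was reached by 6 of 6 members and by 70.9% of all genes, a share of genes so large that this criterion alone does not set the receptors apart. The libraries of the persistent pair did not overlap those of the PAt/Arrested pair for 5 of the 6, all but Cxcr4, as for 45.8% of all genes. The median log2 difference was -0.57 over the members and -0.01 over all genes.

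**Figure D1:**
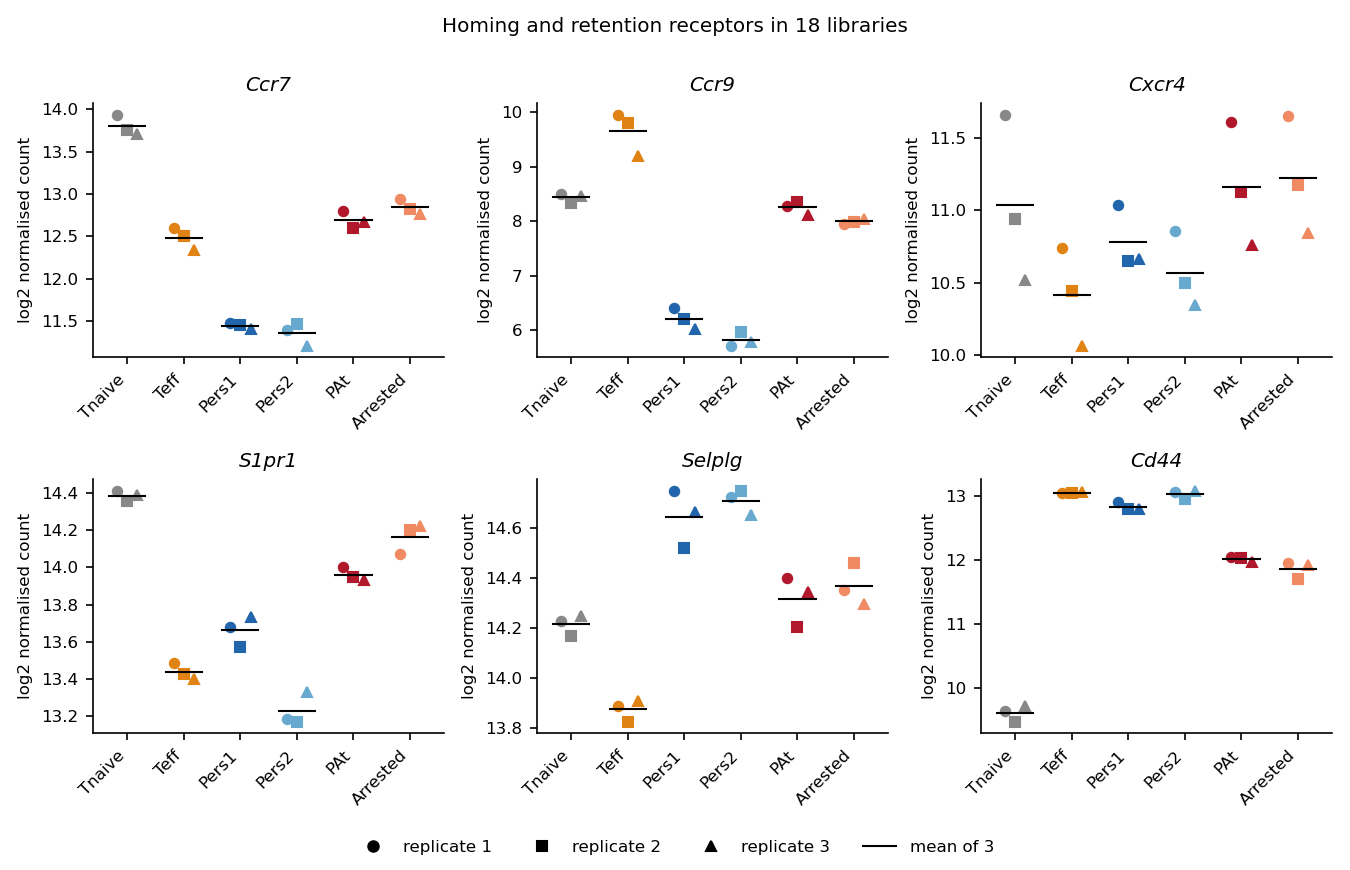
Log2 normalised count (vertical axes, each with its own range) of the 6 receptors in the 18 libraries, by population; symbols give the replicate number and bars the mean of 3. Ccr7 and Ccr9 are lowest in Pers1 and Pers2, S1pr1 is highest in Tnaive and lowest in Pers2, Cd44 is lowest in Tnaive, and replicate 1 is the highest Cxcr4 library in all 6 populations.

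Ccr7 (chromosome 11, 99144196 to 99155077 in GRCm38, on the minus strand) had log2 values of 13.93, 13.76 and 13.71 in the 3 Tnaive libraries. It was 12.94, 12.83 and 12.76 in Arrested, 12.80, 12.60 and 12.67 in PAt, and 12.59, 12.50 and 12.33 in Teff libraries. Pers1 libraries had 11.47, 11.45 and 11.41, and Pers2 libraries 11.40, 11.46 and 11.21. The 6 persistent libraries were therefore the lowest of all 18, and the 3 Tnaive libraries the highest. Between the persistent and PAt/Arrested pairs, Ccr7 fell by 1.37 on the log2 scale (standard error 0.05, adjusted p = 5.3e-15). In the order of the 6 means, Arrested and PAt cells differed by 0.16 (standard error 0.08, adjusted p = 0.291) and Pers1 and Pers2 by 0.09 (standard error 0.08, adjusted p = 0.543). PAt cells lay above Teff cells by 0.21 (standard error 0.08, adjusted p = 0.0267). Ccr7 thus had 1 high level in Tnaive cells, middle levels in Arrested, PAt and Teff cells, and a low level in both persistent populations, with 5.44-fold between the highest and the lowest mean.

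Ccr9 (chromosome 9, 123678439 to 123784330) had the widest range of the 6 receptors, with 14.2-fold between Teff and Pers2 means. Its log2 values were 9.95, 9.80 and 9.19 in Teff, 8.49, 8.34 and 8.47 in Tnaive, 8.28, 8.36 and 8.12 in PAt and 7.96, 7.99 and 8.04 in Arrested libraries. They were 6.39, 6.21 and 6.02 in Pers1 and 5.71, 5.97 and 5.79 in Pers2 libraries. The 6 persistent libraries were again the lowest of the 18, and here the 3 Teff libraries were the highest. The persistent pair fell below the PAt/Arrested pair by 2.11 on the log2 scale (standard error 0.11, adjusted p = 2.3e-13). Tnaive, PAt and Arrested cells were close, with log2 differences of 0.18 between Tnaive and PAt (adjusted p = 0.336) and 0.26 between PAt and Arrested (adjusted p = 0.396). The exons of Ccr9 share 1932 bp with AC165425.1, a transcript of the opposite strand, and whether reads were counted by strand is not given in the sources used here, so reads of both cannot be told apart. They also share 269 bp with Gm17200, on the same strand.

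The promoters of Ccr9 and Cd44 are shown because Ccr9 had the largest negative and Cd44 the largest positive log2 difference of the 6 receptors in the comparison above. RefSeq windows of 300 bases at the transcript start were at hand for 3 of the 6 members, Ccr9, Cd44 and Cxcr4. Capitals mark CACCC, the core bound by KLF factors, or its reverse complement GGGTG. The FOXO motif was searched as GTAAACA, on both strands. The Ccr9 window is chr9:123766961-123767260 on the plus strand of GRCm38.p6, and the Cd44 window is chr2:102901616-102901915 on the minus strand.
Ccr9: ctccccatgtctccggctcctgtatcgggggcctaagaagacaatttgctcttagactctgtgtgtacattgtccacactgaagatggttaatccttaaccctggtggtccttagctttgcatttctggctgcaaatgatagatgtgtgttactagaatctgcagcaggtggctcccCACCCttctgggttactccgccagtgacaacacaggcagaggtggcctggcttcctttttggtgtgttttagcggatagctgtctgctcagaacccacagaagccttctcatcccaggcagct
Cd44: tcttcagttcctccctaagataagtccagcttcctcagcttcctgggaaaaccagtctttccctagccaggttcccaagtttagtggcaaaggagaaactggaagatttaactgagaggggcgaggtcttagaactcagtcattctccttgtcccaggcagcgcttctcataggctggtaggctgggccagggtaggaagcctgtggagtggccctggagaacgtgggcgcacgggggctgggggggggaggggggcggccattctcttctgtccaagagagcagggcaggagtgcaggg
The Ccr9 window held 1 CACCC and no GTAAACA, the Cd44 window held neither, and the Cxcr4 window, not printed, held 1 CACCC. Of all 32851 promoter windows, 57.5% held CACCC and 3.65% held GTAAACA on either strand.

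The highest Ccr9 level coincided with markers of plasmacytoid dendritic cells, which are known to express CCR9. Siglech, a defining surface lectin of these cells, was 10.78, 10.93 and 10.16 in the 3 Teff libraries and between 3.53 and 4.57 in the other 15. Klk1 was 8.91, 8.72 and 7.52 in Teff libraries and between 3.29 and 3.63 elsewhere. In Teff, replicate 3 was the lowest library for Ccr9, Siglech and Klk1 alike. The summed back-transformed level of the 7 plasmacytoid dendritic cell markers was 7030 to 9680 in Teff libraries, 3350 to 3580 in Pers1, 3090 to 3310 in Arrested, 2900 to 3500 in PAt, 2610 to 2970 in Pers2 and 1910 to 2100 in Tnaive libraries. Outside Teff libraries most of that sum came from Bst2 and Irf8, with mean log2 values of 10.77 and 10.49 in Pers1 cells. The Pers1 means of the other markers were 7.01 for Tcf4, 6.29 for Ly6d, 4.30 for Siglech, 3.54 for Klk1 and 2.91 for Cox6a2. The part of the 7 markers in the Teff level of Ccr9 was not tested. Between the persistent and PAt/Arrested pairs, 0 of the 7 markers were called by limma and 4 had an adjusted p under 0.05. Of these 4, Ly6d (log2 difference -0.97, standard error 0.13, adjusted p = 1.0e-06), Tcf4 (-0.73, standard error 0.09, adjusted p = 2.9e-07) and Bst2 (-0.15, standard error 0.06, adjusted p = 0.034) were lower in the persistent pair, as Ccr9 was, and Irf8 (0.30, standard error 0.10, adjusted p = 0.0101) was higher. Siglech differed by -0.06 (standard error 0.16, adjusted p = 0.743), Klk1 by 0.07 (adjusted p = 0.699) and Cox6a2 by 0.04 (adjusted p = 0.472). The part of these markers in the fall of Ccr9 was not tested.

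**Figure D2:**
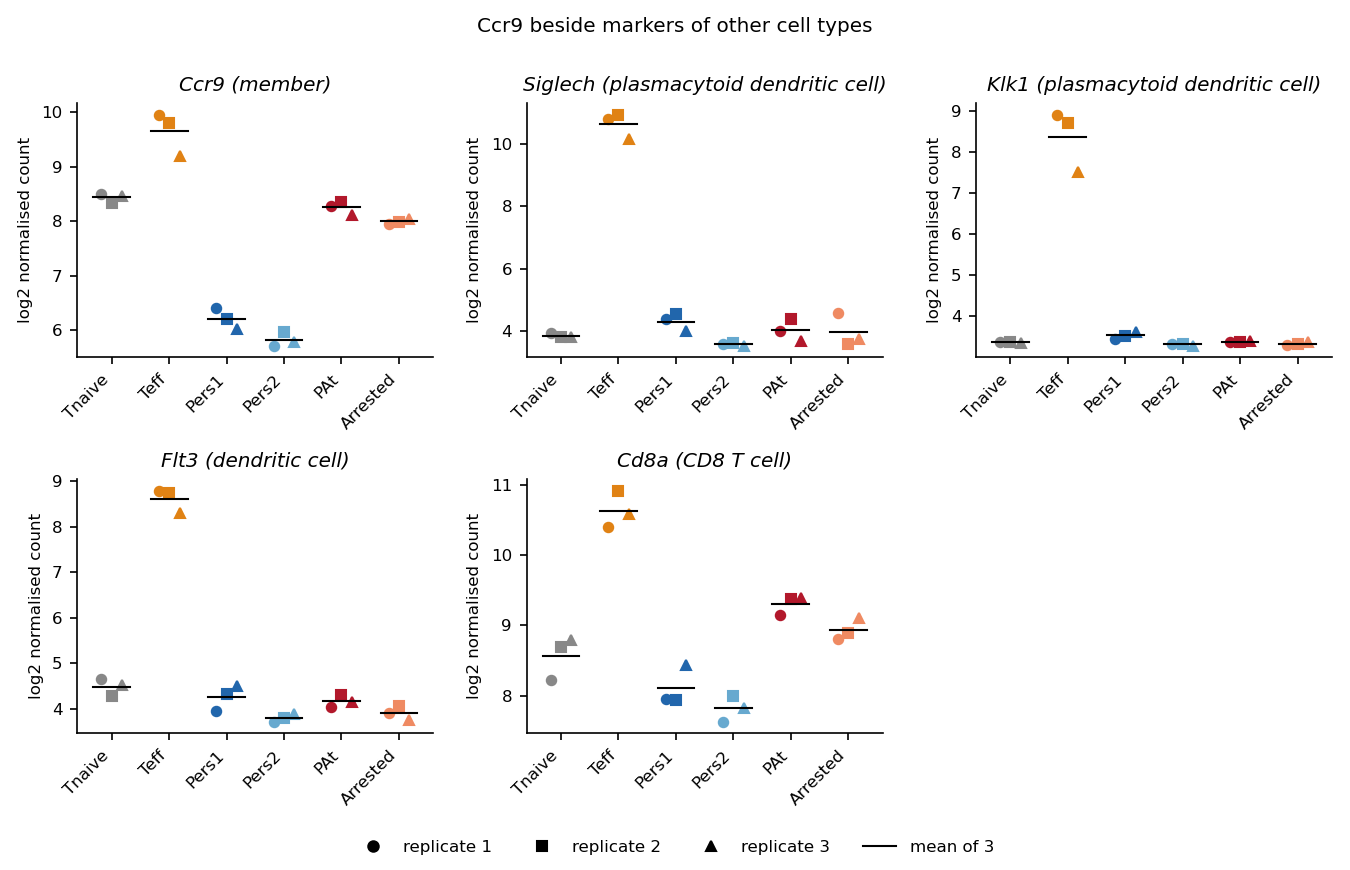
Log2 normalised count of Ccr9 and of 4 markers of other cell types in the 18 libraries (vertical axes differ); symbols give the replicate number and bars the mean of 3. Siglech, Klk1 and Flt3 are high in Teff alone, whereas Cd8a is also higher in PAt and Arrested than in Pers1 and Pers2.

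Markers of B cells and CD8 T cells, which also use several of these receptors, did move with that comparison. Of 7 B cell markers 3 were called lower in the persistent pair and 4 were not called. Cd8a, a chain of the CD8 co-receptor, fell by 1.16 on the log2 scale (standard error 0.11, adjusted p = 1.1e-08). The summed level of the B cell markers was 1680 to 1870 in Pers1 and 1550 to 1850 in Pers2, against 3350 to 3880 in PAt and 2590 to 3140 in Arrested libraries. In Teff it was 3130 to 4990, and in Tnaive it was the lowest, at 806 to 1060. The summed level of the 2 CD8 T cell markers was 910 to 1160 in Pers1, 803 to 1040 in Pers2, 1500 to 1670 in PAt, 1360 to 1550 in Arrested, 1270 to 1560 in Tnaive and 2920 to 4090 in Teff libraries. In a fit of the 4 Timer+ populations alone, without Teff and Tnaive libraries, the 2 of 6 members called were the same, Ccr7 and Ccr9. The log2 differences of this comparison use no Teff or Tnaive library, so that fit changed only the estimated spread. It does not bear on the B cell and CD8 T cell markers. The part of these markers in the differences of Ccr7, Ccr9 and Cxcr4 was not tested. The 6 CD4 T cell markers had 0 calls by limma in this comparison and 6 at an adjusted p under 0.05, with a median log2 difference of 0.17.

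S1pr1 (chromosome 3, 115710433 to 115715072) separated all 6 populations. Tnaive libraries had log2 values of 14.41, 14.36 and 14.39, Arrested libraries 14.07, 14.20 and 14.22, and PAt libraries 14.00, 13.95 and 13.93. Pers1 libraries followed with 13.68, 13.57 and 13.73, Teff libraries with 13.49, 13.43 and 13.40, and Pers2 libraries with 13.19, 13.17 and 13.33. No library of one population overlapped the next in this order. Each of the 5 neighbouring steps had an adjusted p under 0.05, from 5.1e-05 between PAt and Pers1 to 0.0273 between Arrested and PAt, with log2 differences from 0.20 to 0.30 and a standard error of 0.05. Highest to lowest, the means spanned 2.23-fold. The log2 difference of the persistent from the PAt/Arrested pair was -0.62 (standard error 0.04, adjusted p = 5.1e-12).

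S1pr1 was also the only member with an adjusted p under 0.05 within either pair of Timer+ populations. It was lower in Pers2 than in Pers1 (log2 difference -0.43, standard error 0.05, adjusted p = 2.0e-05) and higher in Arrested than in PAt cells by 0.20 (standard error 0.05, adjusted p = 0.0273). Within the pairs, 0 of 6 members were called by limma, as against 0.19% of all genes between Pers2 and Pers1 and 0.121% between Arrested and PAt. An adjusted p under 0.05 alone was reached by 1 of 6 members in each pair (10.6% and 5.04% of all genes), and an unadjusted p under 0.05 by 3 and 2 members. Between Pers2 and Pers1, Ccr9 differed by -0.39 (standard error 0.15, adjusted p = 0.11) and Cd44 by 0.20 (standard error 0.07, adjusted p = 0.0583, and 0.0165 with the replicate as a block).

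Cxcr4 (chromosome 1, 128588199 to 128592293) varied widely between replicates, while the highest and the lowest of its 6 population means lay 0.81 apart on the log2 scale. Its log2 values in replicates 1, 2 and 3 were 11.66, 11.17 and 10.85 in Arrested, 11.61, 11.13 and 10.76 in PAt, and 11.66, 10.94 and 10.52 in Tnaive libraries. They were 11.04, 10.65 and 10.67 in Pers1, 10.86, 10.50 and 10.34 in Pers2, and 10.74, 10.44 and 10.07 in Teff libraries. Replicate 1 was the highest in all 6 populations and replicate 3 the lowest in 5. Its SD within populations was 0.39, larger than that of 99.3% of the tested genes, whose median was 0.11. Libraries of the persistent and PAt/Arrested pairs overlapped, and the log2 difference was -0.52 (standard error 0.18, adjusted p = 0.0125). Taken within each replicate number, it was -0.69, -0.57 and -0.30. With the replicate as a block the standard error was 0.07 and the adjusted p = 5.7e-07. Cxcr4 was lower in Teff than in Tnaive cells (log2 difference -0.62, standard error 0.25, adjusted p = 0.0374). Its adjusted p was over 0.05 without any 1 of Tnaive replicate 1 (-0.31, adjusted p = 0.275), Teff replicate 3 (-0.45, adjusted p = 0.174), Teff replicate 2 (-0.64, adjusted p = 0.0675) or Tnaive replicate 2 (-0.67, adjusted p = 0.0542). Without Tnaive replicate 3 the difference was -0.88 (adjusted p = 0.00563). The fits without 1 library had no block. With all libraries and the replicate as a block, the Teff to Tnaive difference had a standard error of 0.09 and an adjusted p of 8.0e-06. Taken within replicates 1, 2 and 3, that difference was -0.92, -0.49 and -0.45. The Cxcr4 mean in Arrested and PAt cells lay above that in Tnaive cells by 0.16 (adjusted p = 0.574). None of the 5 neighbouring steps in the order Arrested, PAt, Tnaive, Pers1, Pers2, Teff had an adjusted p under 0.05 (the lowest was 0.371). With the block, the step from Tnaive to Pers1 had an adjusted p of 0.0203.

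**Figure D3:**
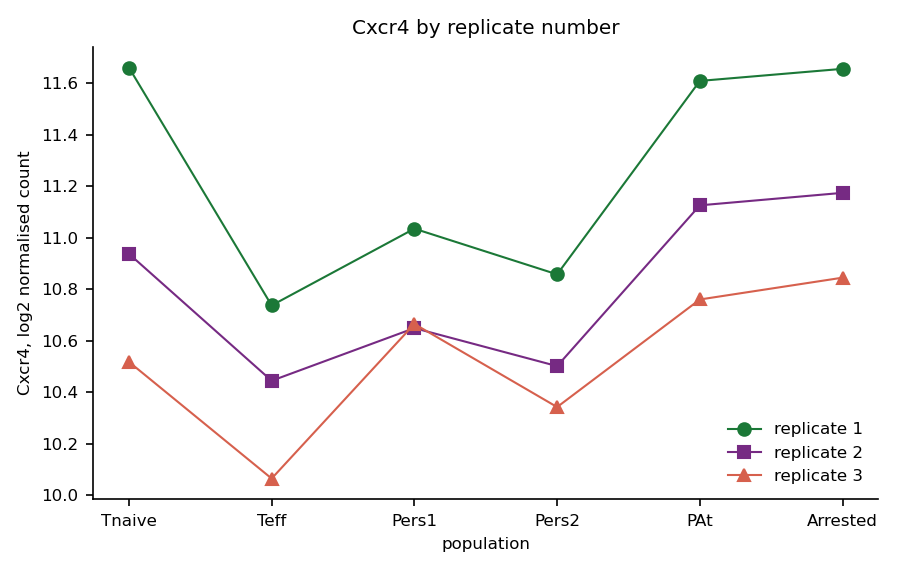
Log2 normalised count of Cxcr4 (vertical axis) in the 6 populations (horizontal axis), with lines joining libraries of the same replicate number. The line of replicate 1 lies above the others in all 6 populations, and in each line Pers1 and Pers2 lie below PAt and Arrested.

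Selplg (chromosome 5, 113818536 to 113832644) had log2 values of 14.72, 14.75 and 14.65 in Pers2 and 14.75, 14.52 and 14.66 in Pers1 libraries. It was 14.35, 14.46 and 14.30 in Arrested, 14.40, 14.20 and 14.34 in PAt, 14.23, 14.17 and 14.25 in Tnaive and 13.89, 13.83 and 13.91 in Teff libraries. The 6 persistent libraries were the highest of the 18 and the 3 Teff libraries the lowest. The persistent pair exceeded the PAt/Arrested pair by 0.33 on the log2 scale (standard error 0.04, adjusted p = 6.0e-07) and was above Teff by 0.80 (standard error 0.05, adjusted p = 3.0e-11), both within the fold threshold. Pers2 and Pers1 differed by 0.06 (adjusted p = 0.587), Arrested and PAt by 0.05 (adjusted p = 0.717), and PAt and Tnaive by 0.10 (adjusted p = 0.175).

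Among the enzymes that put selectin-binding sugars on PSGL-1, Fut7 and Gcnt1 rose in the persistent pair. Of 13 genes of selectin ligand synthesis and of the ezrin family, which ties PSGL-1 and CD44 to actin, 2 were called higher in the persistent pair and 0 lower, against 7.51% of all genes called in either direction, with a median log2 difference of 0.27 against -0.01 over all genes. An adjusted p under 0.05 alone was reached by 12 of the 13, against 70.9% of all genes. Fut7, the fucosyltransferase that completes sialyl Lewis x, rose by 2.17 (standard error 0.07, adjusted p = 1.5e-16). Its log2 values were 9.86 to 9.93 for Pers1, 9.69 to 9.80 for Pers2, 8.70 to 8.80 for Teff, 7.57 to 7.76 for Arrested, 7.53 to 7.74 for PAt and 5.35 to 5.64 for Tnaive libraries. Gcnt1, which starts the core 2 branch of O-glycans, rose by 1.91 (standard error 0.08, adjusted p = 6.0e-15), with means of 12.01 for Pers2, 11.69 for Pers1, 11.32 for Teff, 10.03 for PAt, 9.86 for Arrested and 6.16 for Tnaive cells. Both enzymes were thus highest in the persistent pair, where Selplg was highest too.

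Cd44 (chromosome 2, 102811141 to 102901665) had log2 values of 12.90, 12.79 and 12.80 in Pers1 and 13.07, 12.95 and 13.08 in Pers2 libraries. PAt libraries had 12.05, 12.03 and 11.96, and Arrested libraries 11.94, 11.70 and 11.92. The persistent libraries all lay above those of the PAt/Arrested pair, by a log2 difference of 1.00 (standard error 0.05, adjusted p = 8.1e-14), which was just inside the threshold of 1. With 1 library left out it lay between 0.96 (without Arrested replicate 2) and 1.02 (without Arrested replicate 1), and in 6 of the 12 such fits it passed the threshold. The Timer- cells were gated on CD44 protein, so their Cd44 levels describe the gate and were not tested. They were 13.05, 13.04 and 13.05 in Teff and 9.64, 9.47 and 9.72 in Tnaive libraries. The mean of Teff cells, 13.05 ± 0.01 (SD, n = 3), lay beside that of Pers2 cells, 13.03 ± 0.07. PAt and Arrested cells, not gated on CD44, had means of 12.01 ± 0.04 and 11.86 ± 0.13. The pair's log2 difference from Tnaive was 2.33 and from Teff -1.11, likewise given without a test.

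Timer- cells were compared in the same way to show the receptors in conventional T cells. Ccr7 fell from Tnaive to Teff cells by 1.32 on the log2 scale (standard error 0.08, adjusted p = 3.2e-12), Ccr9 rose by 1.22 (standard error 0.15, adjusted p = 5.0e-07), and S1pr1 was lower (log2 difference -0.95, standard error 0.05, adjusted p = 1.8e-12), short of the fold threshold. Selplg was lower (log2 difference -0.34, standard error 0.06, adjusted p = 5.9e-05). Without Cd44, 2 of 5 members were called, where 11.2% of all genes were, and an adjusted p under 0.05 alone was reached by 5 of 5 and by 59% of all genes. Teff and Tnaive libraries did not overlap for 4 of these 5, all but Cxcr4, as for 64.9% of all genes. After each library had been centred on its median, the log2 difference of S1pr1 was -1.03, past the threshold.

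**Figure D4:**
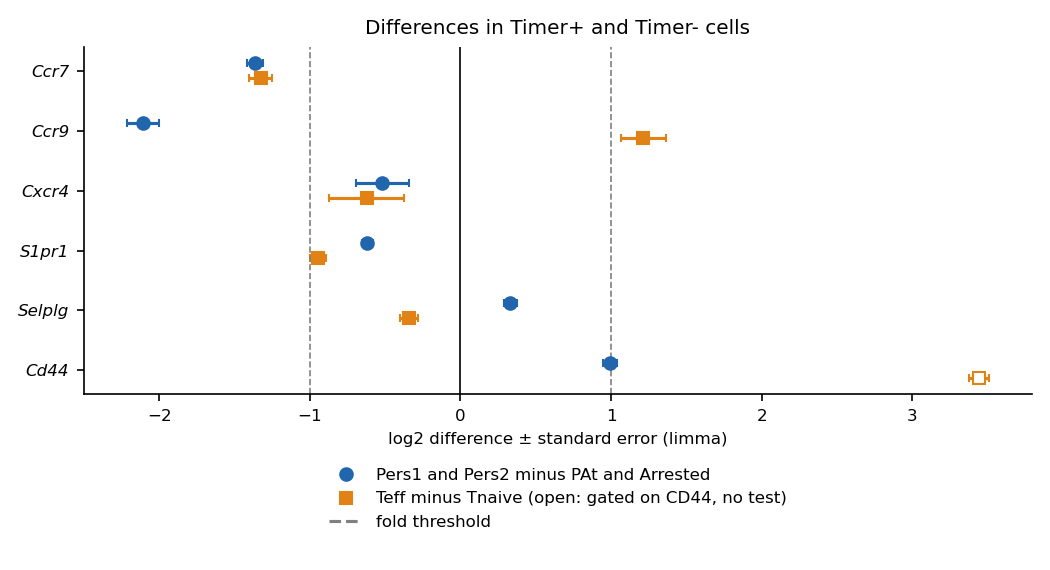
Log2 differences (horizontal axis) of the 6 receptors with their standard errors, for Pers1 and Pers2 minus PAt and Arrested (circles) and Teff minus Tnaive (squares, open for Cd44, which was gated in those cells). Ccr7 has nearly the same value in both, -1.37 and -1.32, while Ccr9 and Selplg have opposite signs.

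The difference between these contrasts was itself tested, as persistent minus PAt and Arrested against Teff minus Tnaive. Of 5 members, leaving out Cd44, 1 was called and 3 had an adjusted p under 0.05 alone, against 8.42% and 48.7% of all genes. Ccr9 differed by -3.32 (standard error 0.18, adjusted p = 3.4e-12), falling in Timer+ and rising in Timer- cells, the latter beside the markers of plasmacytoid dendritic cells given above. Selplg differed by 0.67 (standard error 0.07, adjusted p = 1.8e-07) and S1pr1 by 0.33 (standard error 0.06, adjusted p = 2.5e-04). For Ccr7 the difference was -0.04 (standard error 0.09, adjusted p = 0.742), and for Cxcr4 it was 0.10 (standard error 0.31, adjusted p = 0.803).

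Against Teff cells, the persistent pair had lower Ccr7 (log2 difference -1.08, standard error 0.07, adjusted p = 1.1e-11), and lower Ccr9 (log2 difference -3.63, standard error 0.13, adjusted p = 1.6e-15). These 2 of 5 members were called, against 8.31% of all genes, and 3 of 5 had an adjusted p under 0.05 alone, against 58.7%. S1pr1 differed by 0.01 (standard error 0.05, adjusted p = 0.906), a difference whose sign turned, to -0.053, with library medians centred, and Pers1 lay above and Pers2 below Teff cells. Cxcr4 differed by 0.26 (adjusted p = 0.318, and 0.00944 with the replicate as a block), and by 0.08 without Teff replicate 3 and 0.42 without Teff replicate 1. The PAt/Arrested pair had higher S1pr1 than Teff cells, by 0.62 (standard error 0.05, adjusted p = 2.3e-10), higher Selplg, by 0.47 (adjusted p = 1.6e-07), higher Cxcr4, by 0.78 (adjusted p = 0.00462), and higher Ccr7, by 0.29 (adjusted p = 9.3e-04). None of these passed the fold threshold, and the 1 of 5 members called was Ccr9, lower (log2 difference -1.53, standard error 0.13, adjusted p = 2.3e-09), against 6.88% of all genes. All 5 had an adjusted p under 0.05 alone, against 52.7%. Against Tnaive cells, the PAt/Arrested pair had lower Ccr7 (log2 difference -1.03, standard error 0.07, adjusted p = 2.2e-11), the 1 of 5 members called, against 7.9% of all genes. That call was lost without Tnaive replicate 1, at -0.97. S1pr1 was lower (log2 difference -0.32, adjusted p = 4.6e-06) and Selplg higher by 0.13 (adjusted p = 0.0469), so 3 of 5 had an adjusted p under 0.05 alone, against 50.7%. Ccr9 differed there by -0.31 (adjusted p = 0.0514, and 0.0334 with the replicate as a block). These comparisons share populations, and their values are not independent.

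Other genes of lymph node entry and exit were counted from a list of 42, of which 41 were tested. Between the persistent and PAt/Arrested pairs 1 was called higher, 1 lower and 39 were not called, 31 of these with an adjusted p under 0.05, and the median log2 difference was 0.07. The 2 of 41 called stand against 7.51% of all genes, and the 33 of 41 with an adjusted p under 0.05 against 70.9%. The gene called lower was Klf2, a transcription factor known to drive S1pr1 and other homing genes in naive T cells. It had means of 13.84 in Tnaive, 13.75 in Arrested, 13.37 in PAt, 12.75 in Teff, 12.65 in Pers1 and 12.24 in Pers2 cells, the same order of populations by mean as S1pr1 but for Teff and Pers1. Klf2 fell by 1.11 on the log2 scale (standard error 0.09, adjusted p = 7.8e-10), with all 6 persistent libraries below those of PAt and Arrested. The gene called higher was Gpr183, the oxysterol receptor that positions cells at follicle borders, which rose by 1.16 (standard error 0.08, adjusted p = 2.0e-11). Cd69, whose product removes S1PR1 from the surface, differed by -0.11 with no block (standard error 0.12, adjusted p = 0.453). Its highest library was replicate 1 in every population, as for Cxcr4, and its fit with the replicate as a block is not reported here.

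A list of 12 other chemokine receptors, mostly for inflamed tissue but with Cxcr5 among them, was counted for comparison. Of the 12, 8 were called higher in the persistent pair than in the PAt/Arrested pair, 0 lower and 4 were not called. Of all genes, 7.51% were called in either direction. An adjusted p under 0.05 alone was reached by 10 of the 12, against 70.9% of all genes. The median log2 difference of the 12 was 2.36, against -0.57 for the 6 members. Ccr2, the receptor for monocyte chemoattractants, rose by 4.17 (standard error 0.09, adjusted p = 1.3e-18), Ccr10, a skin-homing receptor, by 3.12 (standard error 0.13, adjusted p = 6.8e-15), and Ccr3 by 2.81 (standard error 0.12, adjusted p = 1.1e-14).

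**Figure D5:**
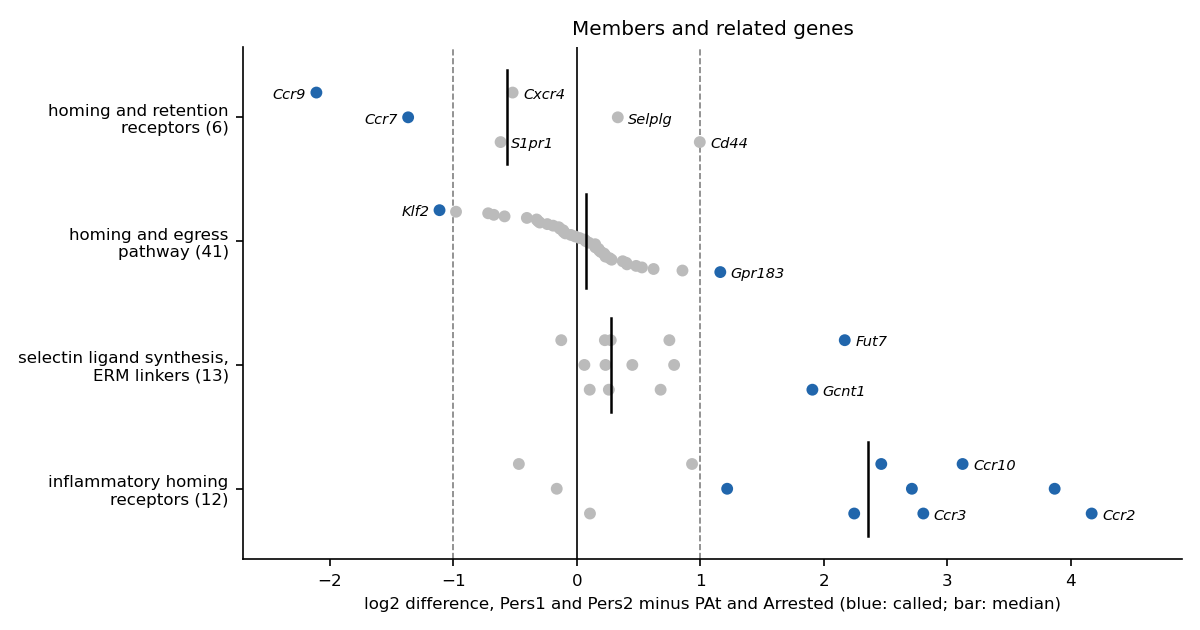
Log2 differences between the persistent and PAt/Arrested pairs (horizontal axis) for the 6 members, 41 genes of homing and egress, 13 of selectin ligand synthesis with the ezrin family, and 12 inflammatory homing receptors (with Cxcr5 among them). Each point is a gene, blue where called, black bars are medians and dashed lines the fold threshold; the medians are -0.57, 0.07, 0.27 and 2.36.

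Genes whose values followed each receptor most closely over the 18 libraries were found by Pearson's r among 13168 genes, as a description, since the points share populations. Ccr7 was followed by Scml4 (r = 0.992), Slc25a23 (0.988) and Slc37a1 (0.988), and Cd44 by Bcl2a1b (0.996), Bcl2a1d (0.995) and Runx2 (0.992). Bcl2a1b and Bcl2a1d are near-identical copies that can share reads. Ccr9 was followed by Dusp6 (r = 0.99), a phosphatase of ERK, and by Plcg1 (0.97), a phospholipase of T-cell receptor signalling. S1pr1 was followed by Ly6c1 (r = 0.97), Dph5 (0.96) and Mir17hg (0.96), and Selplg by Slc16a6 (0.96), Itgb7 (0.96) and LOC100503496 (0.95). Itgb7 encodes the beta chain of the integrin that binds MAdCAM-1. Cxcr4 was followed least closely, by Sik1 (r = 0.92), Tagap (0.91) and Tnfaip3 (0.86). Sik1, a salt-inducible kinase, deviated from its population means by 0.78, -0.10 and -0.68 in replicates 1, 2 and 3, and Tnfaip3, the NF-kappaB inhibitor A20, by 0.67, -0.08 and -0.58. Cxcr4 itself deviated by 0.39, -0.06 and -0.33, so these genes shared its order of replicates.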

How the data were processed

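The authors made stranded mRNA libraries from sorted cells, sequenced paired-end reads, aligned them to mm10 with TopHat2 2.0.9 (labels: CASAVA 1.8.2, FastQC 0.11.2, DESeq2) and deposited log2 values of normalised counts for 15402 genes, 1 column per library. They lie between -0.02 and 18.89, with 173 below 0 and 0 whole numbers, as in a regularised log transform, which draws differences of genes with few reads towards 0. The counting program is not given in the sources used here. Read counts were not analysed here, so depth is unknown and precision rests on 3 replicates.

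Genes whose mean over all libraries reached 3 (13190) were fitted as deposited, with no pseudocount, by limma 3.58.1 in R 4.3.3, in 1 model of 6 populations (12 residual degrees of freedom, variances moderated along a trend on expression). The model was checked on simulated data with independent libraries, a check that does not cover deviations shared by replicate number. The study's thresholds were used. Named genes are the 6 members, the 4 largest called differences per list, the marker genes, and the 3 nearest genes per member. Cd69 and other genes outside this were named after their values were seen, and some genes the rule takes are not reported here. The members and lists were chosen with earlier results of these data known. Alternatives to the filter, trend, centring, samples in the fit, threshold and block, and fits without 1 library, were run. Gene positions are from GENCODE vM21. Figures were drawn with matplotlib 3.10.9.

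Replicate numbers were taken to pair libraries, because per the labels the 6 populations were sorted from the same pooled nodes of each replicate, although that a number marks 1 pool is not spelt out. Deviations from population means had a median correlation of 0.166 (from -0.206 to 0.436) over 45 pairs of libraries with the same number and -0.064 over 90 pairs with different numbers. The main model had no block, as the study names none.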

Additional observations from a re-analysis of the deposited data

Results flagged for a closer look

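For 3 of 5 receptors, leaving out Cd44, an interaction contrast in limma had an adjusted p under 0.05, against 48.7% of all genes. It set the persistent pair (Pers1 and Pers2) minus the PAt/Arrested pair against Teff minus Tnaive cells. Only 1 of the 5, Ccr9, was called, where 8.42% of all genes were. Ccr9 had the largest gap, -3.32 on the log2 scale (adjusted p = 3.4e-12), with every persistent library below all PAt and Arrested libraries and every Teff library above all Tnaive libraries. The Teff libraries also carried Siglech at 10.16 to 10.93, and its part was not tested. Selplg differed by 0.67 (adjusted p = 1.8e-07), higher in the persistent pair and lower in Teff cells. S1pr1 differed by 0.33 (adjusted p = 2.5e-04), with the same direction in both contrasts. Each population had 3 libraries, too few for a test of single libraries that stand apart.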

How the results depend on the processing

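Of 780 values recomputed for the members under alternatives, 742 were kept, 1 lost its call, 25 gained a call and 12 changed sign. Kept means the same direction and the same side of the threshold. Cd44 had no call in comparisons with Teff or Tnaive cells, and was kept there if it moved by less than its SD within populations. Only centring and leaving out a library can alter a log2 difference, so the other alternatives could not change its direction. Without the fold threshold, the genes called numbered 9357 for the persistent against the PAt/Arrested pair, 7785 for Teff against Tnaive, 7739 for the persistent pair against Teff, 6684 for the PAt/Arrested pair against Tnaive and 6950 against Teff, 1395 for Pers2 against Pers1, 665 for Arrested against PAt, and 6420 for the difference of contrasts. The members called were then 6, 5, 3, 3, 5, 1, 1 and 3. With the replicate block, 992 genes were called for the persistent against the PAt/Arrested pair in place of 990, and no call of a member changed. Centring library medians turned S1pr1 in the persistent pair against Teff to -0.0532, and leaving out 1 library gave -0.0173 to 0.0322. Leaving out 1 library gave 0 to 1 members called for the PAt/Arrested pair against Tnaive (0 without Tnaive replicate 1) and 12 to 26 genes called for Arrested against PAt (26 without Arrested replicate 3, 16 with all). Signs also changed among values that were not called, with ranges of -0.10 to 0.47 for Cxcr4 in the PAt/Arrested pair against Tnaive, -0.16 to 0.28 for Cxcr4 and -0.0038 to 0.0938 for Selplg in Arrested against PAt, and -0.21 to 0.36 for Cxcr4 and -0.11 to 0.0172 for Ccr7 in the difference of contrasts. Without 1 library and with no block, Cxcr4 in Teff against Tnaive ranged from -0.88 to -0.31. It ranged in the persistent pair against Teff from 0.0843 to 0.42, and in Pers2 against Pers1 from -0.36 to -0.0898. The cause was not tested. Depth is unknown, and with 3 pools a population only differences well above the pool spread can be seen.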

Other observations

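Rgs1 and Rgs16, regulators of G-protein signalling that shorten the response to chemokines, were chosen after their values were seen. The Rgs16 mean was 6.23 ± 0.13 (SD, n = 3) for Tnaive and 9.40 ± 0.13 for Teff cells. It was 10.63 ± 0.15 for Pers1, 11.09 ± 0.21 for Pers2, 11.32 ± 0.35 for PAt and 10.68 ± 0.49 for Arrested cells, so that all 12 Timer+ libraries lay above the 6 Timer- libraries. The PAt/Arrested pair exceeded Teff cells by 1.60 for Rgs16 (standard error 0.16, adjusted p = 2.8e-08 by limma) and by 1.41 for Rgs1 (standard error 0.21, adjusted p = 6.8e-06). Pers1 and Pers2 exceeded Teff cells by 1.46 for Rgs16 (adjusted p = 8.8e-08) and by 1.48 for Rgs1 (adjusted p = 2.9e-06). Of all genes, 6.88% were called between the PAt/Arrested pair and Teff, and 8.31% between the persistent pair and Teff. Between the 2 Timer+ pairs, Rgs16 differed by -0.14 (adjusted p = 0.361) and Rgs1 by 0.07 (adjusted p = 0.715), with no block. For both genes the highest library was replicate 1 in every population. Of the other Rgs genes listed for lymph node entry and exit, Rgs3, Rgs10 and Rgs18 had higher means in Teff than in any Timer+ population. The Rgs10 mean was 13.09 in Teff and from 12.47 to 12.72 in the Timer+ populations. For Rgs2, Rgs14 and Rgs19, some Timer+ means lay above that of Teff cells.

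Gpr183 was highest in Teff cells, with a mean of 12.74 ± 0.09 (SD, n = 3), and lowest in PAt cells, with 10.43 ± 0.04. Arrested cells, at 11.13 ± 0.10, lay above PAt cells by 0.70 (standard error 0.11, adjusted p = 4.5e-04 by limma), short of the fold threshold.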
